A study of Mus musculus with 4 samples.

Results

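The melanocortin system is the arcuate pathway through which peptides cut from pro-opiomelanocortin restrain feeding, and it was described here through 9 genes chosen by symbol: the peptide precursors Pomc and Cartpt, the receptors Mc3r and Mc4r, the prohormone convertases Pcsk1 and Pcsk2, the convertase inhibitor Pcsk1n, and the carboxypeptidases Cpe and Prcp. Of these, 8 were measured, out of 19938 genes in the table. The platform annotation used here names no probe set for Pcsk2, so it was not analysed. Each of the 8 genes had 1 probe set, and all 8 passed the filter on low values (a mean over the 4 arrays of at least 6.59 log2), as did 11963 genes in all.

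In a pilot experiment, hypothalamic transcripts were compared between mice with increasing loads of a tumour that causes cachexia, the wasting that accompanies some cancers. All animals were male CDF1 mice, a cross of BALB/c and DBA/2, at 10 to 11 weeks of age, and the hypothalamus was taken on day 20. The control array held pooled RNA of 4 mice given a sham injection of 0.2 ml of buffered salt solution. The array of 0.5M held pooled RNA of 4 mice given 500000 C26 cells under the skin of the flank, that of 1M pooled RNA of 3 mice given 1000000 cells, and that of 2M RNA of 1 mouse given 2000000 cells, although its title calls it pooled. C26 is a mouse colon adenocarcinoma line. Each group had 1 array and no replicate, which leaves the difference at any single cell number without an error of its own.

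Pomc neurons of the arcuate nucleus make pro-opiomelanocortin, which Pcsk1 (also called PC1/3) cleaves to larger intermediates and Pcsk2 (PC2) to smaller ones. Cpe then trims the basic residues that the convertases leave at the ends, and the product alpha-MSH acts on Mc4r and Mc3r to lower food intake and raise energy expenditure. Agrp, made by neighbouring neurons together with Npy, blocks both receptors, and in rodents blocking Mc4r is known to lessen tumour-induced anorexia. The annotation used here names no probe set for Agrp either.

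The windows around the transcription start of 4 of the genes are shown because they hold the short promoter motifs that the measured genes share or lack: Pomc, Pcsk1 and Prcp lay below control in every tumour-bearing array, and Cartpt, the other peptide precursor, did not. Each runs from 250 bases before to 50 after the start, 5′ to 3′, from RefSeq on GRCm38.p6, and capitals mark a TATA box (TATAAA), the cyclic AMP response element (CRE, TGACGTCA) or its half-site (TGACG), searched on both strands.
Pomc, chr12:3954695-3954994, plus strand: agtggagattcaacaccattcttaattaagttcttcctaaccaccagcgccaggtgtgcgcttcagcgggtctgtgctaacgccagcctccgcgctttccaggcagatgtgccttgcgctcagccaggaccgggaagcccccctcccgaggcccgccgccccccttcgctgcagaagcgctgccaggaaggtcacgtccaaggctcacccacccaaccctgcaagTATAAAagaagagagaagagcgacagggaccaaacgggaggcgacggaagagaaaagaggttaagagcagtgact
Pcsk1, chr13:75089607-75089906, plus strand: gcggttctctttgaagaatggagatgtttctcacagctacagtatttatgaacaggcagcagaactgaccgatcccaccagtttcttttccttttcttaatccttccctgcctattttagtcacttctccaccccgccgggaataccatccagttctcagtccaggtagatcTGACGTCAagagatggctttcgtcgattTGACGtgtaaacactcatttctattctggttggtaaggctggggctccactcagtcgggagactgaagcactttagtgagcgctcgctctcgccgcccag
Prcp, chr7:92875003-92875302, plus strand: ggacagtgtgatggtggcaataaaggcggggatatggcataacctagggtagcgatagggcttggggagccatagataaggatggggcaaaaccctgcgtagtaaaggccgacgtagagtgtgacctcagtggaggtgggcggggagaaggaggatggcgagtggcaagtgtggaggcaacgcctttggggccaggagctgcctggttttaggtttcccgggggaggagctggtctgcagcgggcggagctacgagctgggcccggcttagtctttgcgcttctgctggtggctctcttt
Cartpt, chr13:99900634-99900933, minus strand: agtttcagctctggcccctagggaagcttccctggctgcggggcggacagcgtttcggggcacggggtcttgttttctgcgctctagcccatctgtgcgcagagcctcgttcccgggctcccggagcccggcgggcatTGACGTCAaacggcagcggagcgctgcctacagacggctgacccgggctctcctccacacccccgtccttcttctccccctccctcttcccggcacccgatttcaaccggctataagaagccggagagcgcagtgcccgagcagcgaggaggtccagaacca

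The Pomc window held the TATA box 25 bases before the start, and no match to the CRE or its half-site. In the Pcsk1 window the full CRE began 78 bases before the start and a further half-site 50 bases before it, and in the Cartpt window the full CRE began 112 bases before the start. The full CRE, which contains the half-site on both strands, was found in 1.79% of the 32851 promoter windows of this length, the half-site in 20.8% and TATAAA in 13.6%. None of these letters occurred in the Prcp window. The GC box (GGGCGG), found in 35.7% of windows, occurred 2 times in the Prcp window, 1 time each in those of Pomc, Pcsk1, Cartpt and Pcsk1n, and 7 times in that of Pcsk2. A search for the STAT motif TTCNNNGAA found no match in the windows of the 4 genes shown or in those of Mc3r, Pcsk1n and Pcsk2, against 8.30% of all windows. These are matches of letters in short windows. No window of Mc4r or Cpe was searched. Of the 7 genes searched, the 2 with the full CRE did not share a pattern across arrays. Pcsk1 was lower than control in all 3 tumour-bearing arrays, whereas Cartpt was lower at 0.5M and 2M and higher at 1M. The part of these motifs in the differences was not tested.

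In the tumour-bearing arrays, the precursor Pomc, the convertase Pcsk1 and the carboxypeptidase Prcp stood below control at every cell number, and the receptors Mc3r and Mc4r stood above it (Mc4r at 1M lay at -0.01 log2 when each array was centred on its median), while Cartpt, Pcsk1n and Cpe lay on both sides. The differences were small. The farthest from control of any measured gene in any array was 0.46 log2, for Pomc at 2M. By limma, with Benjamini-Hochberg adjustment over all 11963 tested genes, 0 of the 8 genes passed at 0.05 in the comparison of the 3 tumour-bearing arrays with the control, where 0.0502% of tested genes passed upwards and 0% downwards. At an unadjusted p under 0.05 limma gave 1 of the 8, Prcp, which was lower, against 4.61% of tested genes lower and 6.19% higher.

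**Figure D1:**
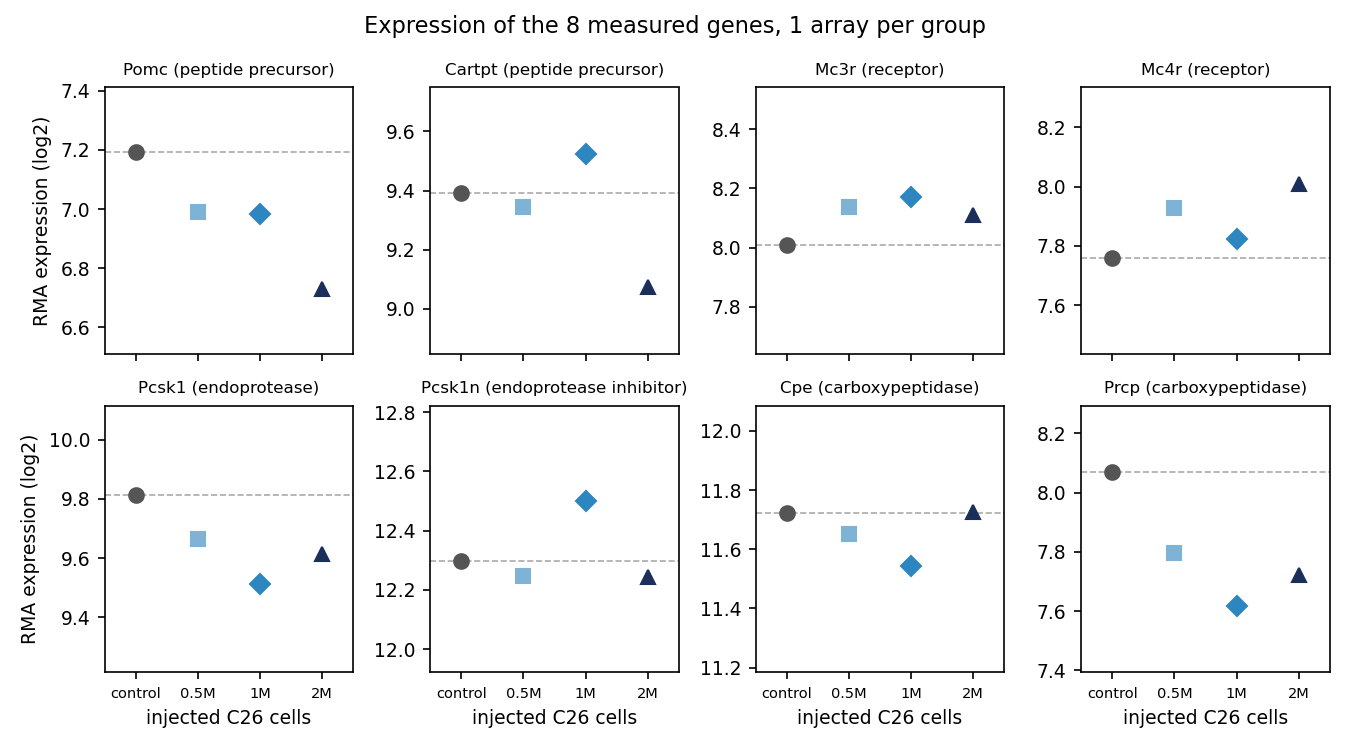
RMA expression (log2) of the 8 measured genes in the control array and at 0.5M, 1M and 2M, 1 point per array, with the control value as a dashed line and every panel spanning the same number of log2 units. Pomc, Pcsk1 and Prcp lie below the line in all 3 tumour-bearing arrays and Mc3r and Mc4r above it, Mc4r at 1M only without centring on array medians.

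Among the peptide precursors, Pomc encodes the source of alpha-MSH, ACTH and beta-endorphin. Its level was 7.19 log2 in the control and 6.99, 6.98 and 6.73 log2 at 0.5M, 1M and 2M. The level of the single 2M animal was the lowest, the pools of 0.5M and 1M lay within 0.01 log2 of each other, and the control lay above all of them. As differences from control these were -0.20, -0.21 and -0.46 log2, so that the control was 1.15-fold, 1.16-fold and 1.38-fold higher. The mean difference was -0.29 ± 0.15 log2 (SD over the 3 tumour-bearing arrays), with a limma standard error of 0.13, a 95% interval from -0.60 to 0.02 and an adjusted p of 0.476. The gap between control and the nearest tumour-bearing array, 0.20 log2, was smaller than the range of 0.26 among the tumour-bearing arrays themselves. Pomc had the lowest mean level of the measured genes, 6.97 log2, near the filter value of 6.59 log2. That level lay at percentile 9.86 of the levels of all tested genes. The part of this low level in the Pomc differences was not tested.

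The Pomc difference at 2M lay at percentile 1.57 of the differences of all tested genes in that array, and those at 0.5M and 1M at percentiles 8.90 and 14.0. In a linear fit on the number of injected cells by limma, with the control entered as 0 cells, the Pomc slope was -0.22 ± 0.06 log2 per 1000000 cells (SE; 95% interval -0.36 to -0.07). The unadjusted p by limma was 0.00937 and the adjusted p 0.682. Pomc was the 1 gene of the 8 at an unadjusted p under 0.05 in this fit. Of tested genes, 3.18% reached it downwards and 3.34% upwards, and 0% passed the adjusted threshold in either direction. Pomc was also the 1 gene of the 8 whose level went down with each step in cell number, as did 4.81% of tested genes, and its step from 0.5M to 1M was -0.01 log2. Without the array of the 2M mouse the Pomc slope was -0.21 log2 per 1000000 cells (limma adjusted p = 0.419; 0.148 to 0.780 over all alternatives). In whole tissue, fewer Pomc neurons and less Pomc RNA per neuron cannot be told apart.

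Cartpt encodes the precursor of CART peptides, which are made by Pomc neurons and by cells of other hypothalamic nuclei and reduce feeding. Cartpt stood at 9.39 log2 in the control and at 9.34, 9.52 and 9.07 log2 at 0.5M, 1M and 2M. It was highest in the 1M pool and lowest in the single 2M animal, with the control between them. The mean difference was -0.08 ± 0.23 log2 (SD over 3 arrays; limma adjusted p = 0.883), and leaving out the 2M array turned it to 0.04 log2. Within arrays, the change of Pomc lay below that of Cartpt at each cell number, by -0.15, -0.34 and -0.14 log2. Both precursors had their lowest level at 2M, where Cartpt differed from control by -0.32 log2, at percentile 5.18 of all tested genes.

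The receptors were the measured genes above control in all 3 tumour-bearing arrays, 2 of 8 (Mc3r alone with each array centred on its median), where 33.4% of all tested genes were. Mc4r, the receptor whose loss causes obesity in mice and humans, stood at 7.76 log2 in the control and at 7.93, 7.82 and 8.01 log2 at 0.5M, 1M and 2M. The 1M pool lay nearest to control, at 0.06 log2 above it, or at -0.01 when each array was centred on its median. Mc4r had a mean difference of 0.16 ± 0.09 log2 (SD over 3 arrays), with a limma 95% interval from -0.10 to 0.42 and an adjusted p of 0.602. Mc3r, which is expressed in the arcuate nucleus as well as its target areas, stood at 8.01 log2 in the control and at 8.14, 8.17 and 8.11 log2. Its 3 tumour-bearing arrays lay within 0.06 log2 of each other and the nearest was 0.10 above control. Mc3r had a mean difference of 0.13 ± 0.03 log2 (limma 95% interval -0.09 to 0.35, adjusted p = 0.615). At 2M the change of Mc4r exceeded that of Pomc in the same array by 0.71 log2 and that of Mc3r exceeded it by 0.56 log2. The corresponding values at 0.5M were 0.37 and 0.33 log2, and at 1M 0.27 and 0.37 log2.

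**Figure D2:**
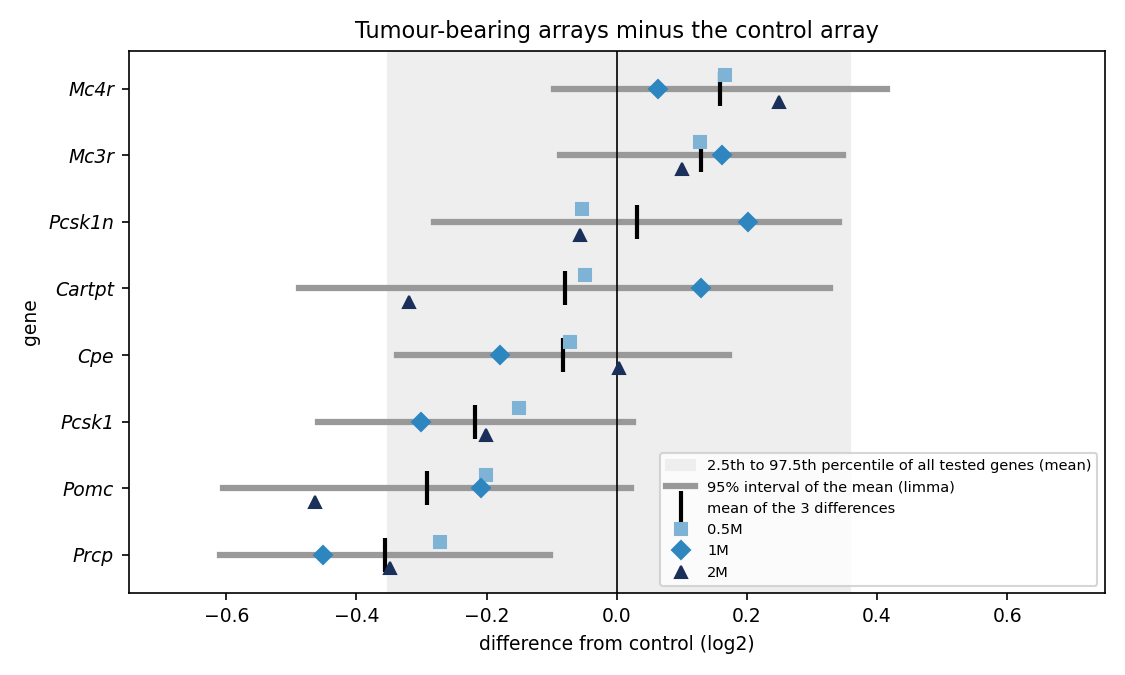
Difference from the control array (log2) of each measured gene at 0.5M, 1M and 2M, with the mean of the 3 differences, its 95% interval by limma and, shaded, the central range of the mean difference over all tested genes, from -0.35 to 0.36, which leaves out the same small share at each end. The interval of Prcp lies wholly below 0, the other 7 span 0, and the means of 7 of the 8 genes lie within the shaded range, with Prcp just below it.

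Of the convertase genes, Pcsk1 was measured. Its product makes the first cuts in pro-opiomelanocortin. The Pcsk1 level was 9.81 log2 in the control and 9.66, 9.51 and 9.61 log2 at 0.5M, 1M and 2M. All 3 tumour-bearing arrays lay below the control, the 1M pool lowest, and the gap to the nearest of them equalled their own range, 0.15 log2. Pcsk1 had a mean difference of -0.22 ± 0.08 log2 (SD over 3 arrays), with a limma 95% interval from -0.46 to 0.03 and an adjusted p of 0.480. With Pomc and Prcp it made 3 of 8 genes below control in all 3 arrays, against 27.3% of all tested genes. With each array centred on its median, the shares of tested genes above and below control in all 3 arrays changed to 26.2% and 34.3%, and the counts of the 8 genes to 1 and 4. Without the 1M array 5 of the 8 lay below control in both others, Cartpt and Pcsk1n being added, as did 4351 of the 11963 tested genes.

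Pcsk1n encodes proSAAS, a granule protein that inhibits PC1/3. Pcsk1n stood at 12.30 log2 in the control and at 12.25, 12.50 and 12.24 log2 at 0.5M, 1M and 2M. The 1M pool was the only array that lay far from the others. Its mean difference was 0.03 ± 0.15 log2 (limma adjusted p = 0.946), and -0.05 without the 1M array. Relative to Pcsk1 in the same arrays, the inhibitor's change was higher by 0.10, 0.50 and 0.15 log2. The gap between their changes was widest at 1M, where Pcsk1 was at its lowest and Pcsk1n at its highest.

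Cpe encodes carboxypeptidase E, which removes the basic residues left by the convertases in Pomc neurons and in most other peptide-making neurons. Cpe stood at 11.72 log2 in the control and at 11.65, 11.54 and 11.73 log2 at 0.5M, 1M and 2M. The 1M pool was lowest, and the 2M array lay within 0.01 log2 of the control, or at -0.02 log2 with each array centred on its median, which put all 3 below it, as did cyclic loess between arrays. The mean difference of Cpe was -0.08 ± 0.09 log2 (limma 95% interval -0.34 to 0.17, adjusted p = 0.802).

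Prcp, prolylcarboxypeptidase, cuts the last residue from alpha-MSH and thereby inactivates it in the mouse hypothalamus. Of the 8 genes it had the lowest mean difference. The Prcp level was 8.07 log2 in the control and 7.80, 7.62 and 7.72 log2 at 0.5M, 1M and 2M. All tumour-bearing arrays lay below control, and the gap to the nearest of them, 0.27 log2, was larger than the range of 0.18 among them. The differences were -0.27, -0.45 and -0.35 log2, so that the control was 1.21-fold, 1.37-fold and 1.27-fold higher. Prcp had a mean difference of -0.36 ± 0.09 log2 (SD over 3 arrays) with a limma standard error of 0.11 and a 95% interval from -0.61 to -0.10. Its unadjusted p by limma was 0.0132 and its adjusted p 0.375. This mean lay at percentile 2.42 of all tested genes, that of Pomc at 4.60 and that of Pcsk1 at 8.74. Among the tumour-bearing arrays the Prcp level did not follow cell number, since the 1M pool was 0.18 log2 below that of 0.5M and the 2M array 0.10 above that of 1M.

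**Figure D3:**
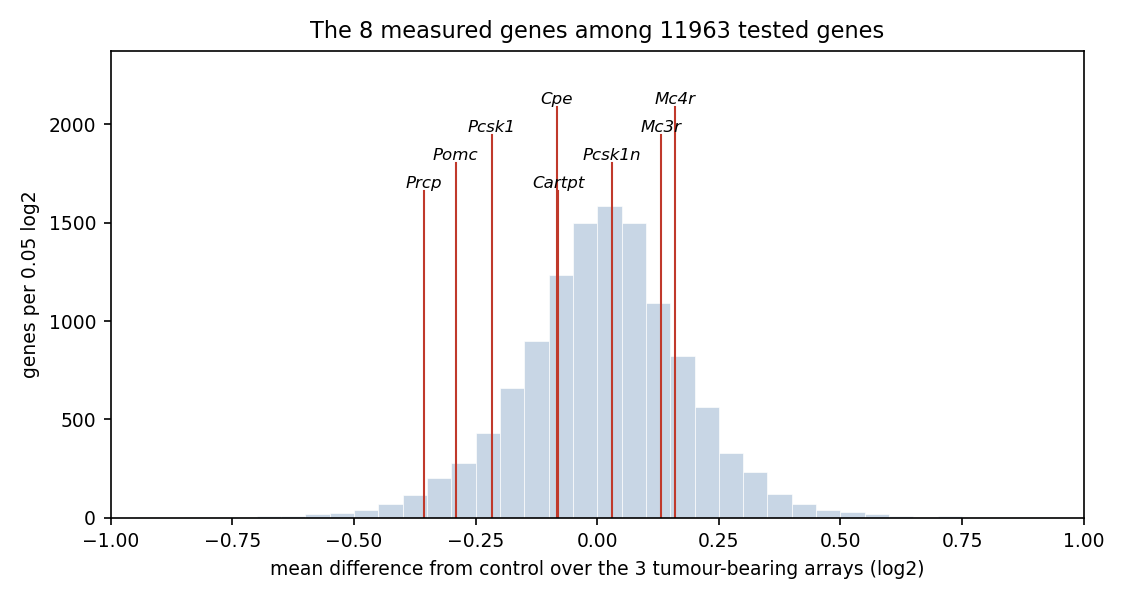
Number of genes (vertical axis) by mean difference from control over the 3 tumour-bearing arrays (horizontal axis, log2, in bins of 0.05), with the 8 measured genes as red lines. Prcp, Pomc and Pcsk1 lie in the lower tail, at percentiles 2.42, 4.60 and 8.74, and Mc3r and Mc4r on the upper side, at 77.7 and 82.5.

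Across the 8 genes the mean differences had a median of -0.08 log2, against 0.01 over all tested genes. By cell number their median stood at -0.06 log2 in the 0.5M pool, -0.06 in the 1M pool and -0.13 in the 2M animal, where all tested genes had medians of 0.01, 0.04 and 0.01. None of the 8 genes was 0.5 log2 or more from control (a 1.41-fold difference) in any array, against 5.32% of tested genes. At 0.25 log2 or more below control stood 1 of the 8 at 0.5M, which was Prcp, where 5.21% of tested genes did. At 1M there were 2, Prcp and Pcsk1, against 10.8%, and at 2M 3, Pomc, Prcp and Cartpt, against 9.03%. None stood that far above control, which 5.81%, 14.9% and 9.14% of tested genes did at 0.5M, 1M and 2M. Between tumour-bearing arrays, which do not involve the control, the largest difference among the 8 genes was that of Cartpt, -0.45 log2 from 1M to 2M, followed among the other genes by Pomc, -0.26 log2 from 0.5M to 2M, and Pcsk1n, -0.26 log2 from 1M to 2M.

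Genes other than the 8 with the pattern most like that of Pomc were found by the distance between the 3 differences from control, which share the control array. The nearest were Armcx2, with differences of -0.21, -0.22 and -0.46 log2, Mmp14, a membrane-bound matrix metalloproteinase gene (-0.22, -0.21 and -0.45), and Pno1 (-0.18, -0.18 and -0.46). Slc38a3, a glutamine transporter gene, and Pgm5 followed at distances of 0.05 and 0.06 log2. Among the 8 genes themselves Prcp and Pcsk1 were nearest to Pomc, at 0.28 log2 each, and 6.85% and 7.23% of tested genes were at least as near. Cartpt was at 0.40 log2, with 19.5% of tested genes as near.

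Further genes of the melanocortin pathway showed no call by limma either. Of 17 listed genes for melanocortin signalling, 14 were measured and 9 were tested. In the tumour comparison 0 of the 9 passed in either direction, with 1 higher and 0 lower at an unadjusted p under 0.05. The median difference of these 9 was -0.01 log2, against 0.01 over all tested genes. The 1 gene was Sim1, a transcription factor of the paraventricular neurons that carry Mc4r, at 7.88 log2 in the control and 8.19, 8.16 and 8.14 log2 at 0.5M, 1M and 2M. Its mean difference was 0.29 ± 0.02 log2 (limma adjusted p = 0.380). Adcy3, an adenylyl cyclase, had a mean difference of 0.20 ± 0.09 log2, and Mrap2, which encodes an accessory protein of Mc4r, of 0.10 ± 0.05 log2. Kcnj13, the potassium channel Kir7.1 through which Mc4r can act in paraventricular neurons and which the choroid plexus also makes, differed by -0.37, -0.60 and 0.06 log2, so that the 2M array lay with the control and the pools below it.

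In the list of prohormone processing and secretory granule genes, all 23 were measured and tested, and limma called 0 in either direction, with 2 higher and 0 lower at an unadjusted p under 0.05. Above control in all 3 arrays were 10 and below it 4, shares to be read against 33.4% and 27.3% of all tested genes. Without the 0.5M array both counts were 10, where 5053 of all tested genes lay above and 4016 below. The median of the list was 0.03 log2, and -0.01 without the 0.5M array or with each array centred on its median. Scg5, the chaperone of PC2, lay within 0.09 log2 of control in each array, and the change of Pcsk1 was below that of Scg5 by 0.24, 0.29 and 0.15 log2 in the same arrays. Of the convertase genes of the constitutive pathway, Pcsk5 was 0.16, 0.19 and 0.26 log2 above control, Pcsk6 0.12, 0.41 and 0.07, and Furin 0.17, 0.14 and 0.23, whereas Pcsk7 differed by -0.14, -0.04 and -0.01. Scg5, Furin and Pcsk7 were named after their values were seen. Pcsk4, a convertase known mainly from germ cells, had a mean difference of 0.34 ± 0.09 log2 (limma unadjusted p = 0.0156, adjusted p = 0.375), and Bace1, the beta-secretase gene, of 0.35 ± 0.10 log2 (limma unadjusted p = 0.0159, adjusted p = 0.378).

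**Figure D4:**
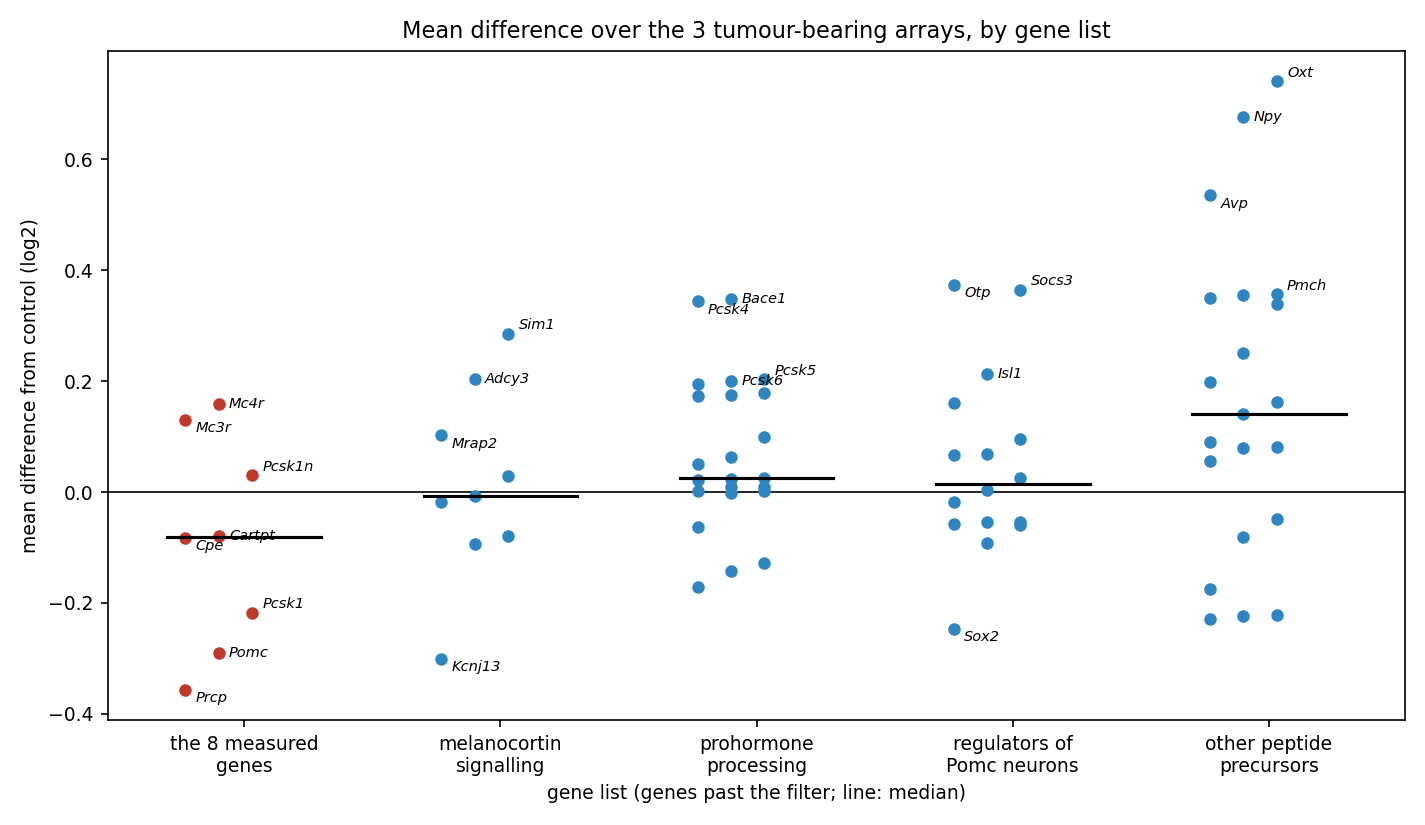
Mean difference from control over the 3 tumour-bearing arrays (log2) for the 8 measured genes in red and, in blue, for the tested genes of 4 further lists, 1 point per gene, with the median of each list as a line and the genes described by name. The median of the other peptide precursors, 0.14 log2, lies highest and that of the 8 genes, -0.08, lowest.

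Regulators of Pomc neurons were on both sides of control. Of 18 listed, 16 were measured and tested, 0 passed by limma, and 1 was higher and 1 lower at an unadjusted p under 0.05, with a median of 0.02 log2. Isl1, a transcription factor needed for Pomc expression, was 0.29, 0.19 and 0.15 log2 above control while Pomc was below it. Socs3, which restrains leptin and cytokine signalling, stood at 6.54 log2 in the control, under the filter value, and 0.15, 0.55 and 0.40 log2 above that at 0.5M, 1M and 2M (limma adjusted p = 0.466). With its probe sets averaged, the Socs3 difference at 0.5M was -0.01 log2. Otp, a factor of neuroendocrine and Agrp neurons, was the gene at an unadjusted p under 0.05 on the higher side (0.37 ± 0.09 log2, limma adjusted p = 0.375). Sox2, a factor of progenitor and glial cells, was that on the lower side (-0.25 ± 0.02 log2, limma adjusted p = 0.418).

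Other peptide precursors that pass through the same convertases and Cpe stood mostly above control. Of 28 listed, 21 were tested. Above control in all 3 arrays were 12, and 3 were below (33.4% and 27.3% of all tested genes). With each array centred on its median, 9 were above, against 26.2% of all tested genes. Limma called 0, with 6 higher and 1 lower at an unadjusted p under 0.05, where 6.19% and 4.61% of all tested genes were. The median was 0.14 log2. Oxt, the oxytocin precursor gene of the paraventricular and supraoptic nuclei, exceeded its control level by 0.79, 0.81 and 0.62 log2 in the 3 arrays, with a mean difference of 0.74 ± 0.11 log2 (limma unadjusted p = 0.000411, adjusted p = 0.289). Avp, the vasopressin precursor gene of the same nuclei, was 0.50, 0.56 and 0.55 log2 above control, with a mean difference of 0.53 ± 0.03 log2 (limma unadjusted p = 0.000816, adjusted p = 0.312). Both stood above control in the arrays in which Pomc stood below it. Npy, the feeding peptide of the neurons that also make Agrp, was 1.41 log2 above control in the 2M array in which Pomc was at its lowest, and the change of Pomc lay below that of Npy in each array, by -0.61, -0.41 and -1.88 log2 at 0.5M, 1M and 2M. The change of Pmch, the precursor of melanin-concentrating hormone, exceeded that of Pomc by 0.60, 0.52 and 0.82 log2.

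Pomc is also made in the pituitary, and Pcsk1, Pcsk2 and Cpe act there, so pituitary markers were read in the same arrays. Of 12 listed markers 10 were measured and 5 passed the filter on low values. Of these 5, 3 were above control in all 3 tumour-bearing arrays and 1 below (33.4% and 27.3% of all tested genes), and of the 10 measured 7 were above and 2 below. Of the 3 above, Gh and Ghrhr stood under the filter value in the control, at 6.13 and 6.52 log2. They passed it through their higher tumour-bearing arrays, so the filter favoured genes above control in this count. Among the 10 the lowest control level was that of Prl, 3.95 log2. The mean level of the 10 was 6.16 log2 in the control and 7.12, 6.45 and 6.30 log2 at 0.5M, 1M and 2M. The growth hormone gene Gh was 4.68 log2 above control at 0.5M and 0.78 and 0.72 at 1M and 2M, and the prolactin gene Prl 3.85, 0.55 and 0.56. Tbx19, the pituitary activator of Pomc, was under the filter value and differed by -0.20, -0.02 and -0.72 log2. Cga, the shared glycoprotein hormone subunit, differed by -0.05, -0.01 and -0.50 log2. Both were lowest in the array in which Pomc was lowest, and they were the 2 of the 10 markers below control in all 3 arrays, against 7 above. Tshb, also under the filter value, was highest at 2M, 0.39 log2 above control. The part of pituitary tissue in the Pomc differences was not tested. Without the 0.5M array the mean difference of Pomc was -0.34 log2 (limma adjusted p = 0.359), and without the 2M array -0.20 log2 (limma adjusted p = 0.857).

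**Figure D5:**
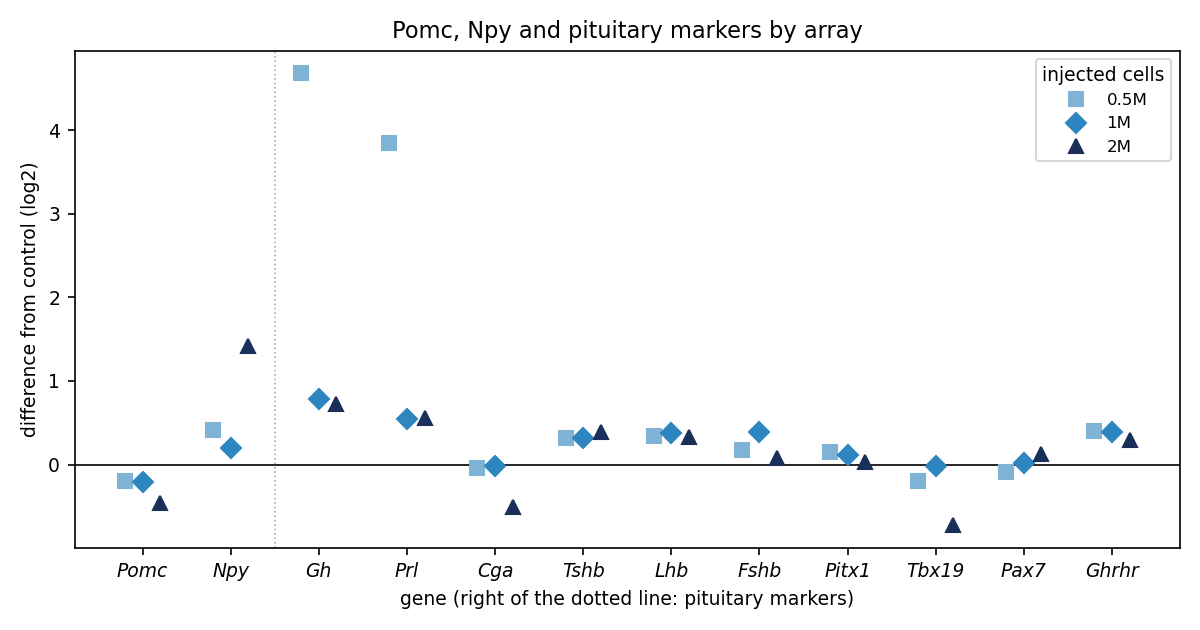
Difference from control (log2) of Pomc, Npy and the 10 measured pituitary markers at 0.5M, 1M and 2M, 1 point per array. Gh and Prl stand 4.68 and 3.85 log2 above control at 0.5M, whereas Pomc at 0.5M lies 0.20 log2 below it. Pomc, Cga and Tbx19 are lowest at 2M, and 7 of the 10 markers lie above control in all 3 arrays.

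Hypothalamic identity was checked by 12 markers, among them Pmch, Oxt, Avp, Trh, Hcrt and Ghrh of the peptide precursors. Of these 12, 11 were measured and tested, with 7 above control in all 3 arrays and 0 below it, where 33.4% and 27.3% of all tested genes were, a median of 0.29 log2 and mean levels of 9.23 log2 in the control and 9.42 to 9.55 in the others. Markers of the arcuate nucleus, where Pomc neurons lie, had a median of 0.15 log2 over 6 tested genes. Of these, 3 were above control in all 3 arrays and 0 below (33.4% and 27.3% of all tested genes). Without the 1M array the counts were 3 and 2, where 4743 and 4351 of the 11963 tested genes lay above and below. Neuronal markers differed by a median of 0.00 log2 over 8 genes, with 1 above control in all 3 arrays and 3 below. Without the 1M array these counts were 4 and 4, to be read against the same 4743 and 4351 genes. With cyclic loess between arrays they were 3 and 3, where 32.3% and 28.9% of all tested genes lay above and below.

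Markers of neighbouring regions and of glia differed between the same arrays. Striatal markers had medians of 0.46, 0.12 and 0.14 log2 over 4 tested genes at 0.5M, 1M and 2M. Of the 4, 3 were above control in all 3 arrays, as were 33.4% of all tested genes. Markers of cortex and hippocampus had medians of -0.22, 0.07 and 0.00 log2 over 4 tested genes. Of these, 1 was above control in all 3 arrays and 2 below (33.4% and 27.3% of all tested genes). Slc17a7, a vesicular glutamate transporter gene, differed by -0.56, -0.59 and -0.35 log2. The 1 above was Tbr1, by 0.49, 0.30 and 0.43 log2 from a control level of 6.33 log2, under the filter value. Thalamic markers had medians of -0.08, 0.07 and -0.11 log2 over 4 tested genes. Oligodendrocyte markers had medians of -0.12, 0.08 and -0.43 log2 over 5 tested genes, and microglial markers of -0.08, 0.00 and -0.25 log2 over 5. Both medians were lowest in the 2M array, in which Pomc and Cartpt were lowest. Not every marker followed: Mobp of the oligodendrocyte list and C1qa of the microglial list were highest at 2M, 0.53 and 0.29 log2 above control. Astrocyte markers had medians of -0.04, 0.02 and -0.02 log2 over 6 tested genes. Of the 6, 1 was above control in all 3 arrays and 2 below (33.4% and 27.3% of all tested genes). Aqp4, the astrocyte water channel gene, differed by -0.50, -0.33 and -0.65 log2, whereas Aldh1l1 of the same list was 0.05, 0.25 and 0.19 log2 above control. Genes named from the marker lists alone were chosen after their values were seen. The part of other regions and of glia in the differences of the 8 genes was not tested. Across all probe sets the arrays correlated at 0.984 to 0.994.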

How the data were processed

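Total RNA of the hypothalamus, 100 ng per array, was hybridised to Affymetrix whole-transcript arrays, 1 per group. Per the submitters' processing notes the authors used RMA, and the deposited values are log2 expression levels of probe sets. RMA subtracts background, aligns the arrays by quantiles and summarises probes. The sources used here do not give its version, its software or a genome build, so no coordinates are printed for the probe sets. Quantile alignment removes changes common to all transcripts. Probe sets were named by the platform annotation, and 21789 of the 35556 deposited had exactly 1 symbol. Where a gene had several, that of highest average level across arrays was taken. Genes at or above the 40th percentile of mean level were tested.

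The 3 tumour-bearing arrays were compared with the control array with limma (version 3.58.1, R 4.3.3) in a two-sided test by lmFit and eBayes (Benjamini-Hochberg adjustment over 11963 genes, threshold 0.05), and a second fit took the slope on cell number. Each fit had 2 residual degrees of freedom. In the comparison with control, the error reflects how the tumour-bearing arrays differ among themselves in cell number and pooling, and the single control is taken to vary as much. In the slope fit, the error reflects how far all 4 arrays, the control included, lie from a straight line on cell number. The number of arrays limits the precision. The steps were tested on simulated data. Differences between single arrays carry no p-value and were counted at 0.5 and 0.25 log2. Alternatives changed the filter, the probe set rule, the scaling, the prior variance and the arrays used. Up to 4 genes per further list were named by the size of their mean difference, beside any at least 0.5 log2 from control in an array and the 5 nearest to Pomc. The genes and lists were chosen with earlier results of these data known. Promoter windows came from RefSeq on GRCm38.p6 by symbol, 7 of the 9 genes having one that was used here. None was used for Mc4r or Cpe, and a chromosome was left out by choice when the windows of the 9 genes were taken. A missing window here need not mean a missing sequence. The remaining values and the plots were made in Python 3.11.15 (pandas 2.3.3, numpy 2.4.6, matplotlib 3.10.9).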

Additional observations from a re-analysis of the deposited data

How the results depend on the processing

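None of the 8 genes passed limma under any of the 9 alternatives in which it was tested, in either fit. The 60th percentile filter left Pomc and Prcp untested. Pomc, Pcsk1 and Prcp stayed below control and Mc3r and Mc4r above it in the mean difference under each alternative that kept them; Pomc ranged from -0.34 to -0.20 log2 and Prcp from -0.40 to -0.31. The signs of 3 genes near 0 turned. When 1 array was left out, the mean difference of Cartpt ranged from -0.18 to 0.040 log2, higher than 0 without the 2M array, and that of Pcsk1n from -0.054 to 0.074, lower than 0 without the 1M array. With medians subtracted, that of Pcsk1n was -0.0039. Slopes ranged, when 1 array was left out, from -0.16 to 0.13 log2 per 1000000 cells for Cartpt, from -0.028 to 0.20 for Pcsk1n and from -0.18 to 0.012 for Cpe, each turning without the 2M array, and the slope of Cpe was -0.013 with medians subtracted. Over all genes, the tumour comparison called 6, against 1 with no filter, 2 with the 60th percentile filter and 3 to 6 when 1 array was left out. The slope called 0, and 0 to 58 when 1 array was left out. Of the 8 genes, 0 lay 0.5 log2 or more from control in some array (5.32% of tested genes), or 1 with medians subtracted (Prcp at 1M), and 4 at 0.25 log2. For the counts of 1 and 4 no matching share of all tested genes was taken, so they cannot be read against other genes. Those above control in all arrays numbered 2 (33.4% of tested genes), or 1 with medians subtracted (26.2%). Those below numbered 3 (27.3%), or 4 with cyclic loess (28.9%) and 4 with medians subtracted (34.3%). When 1 array was left out, those below numbered 3 to 5, against 3651 to 4351 of the 11963 tested genes. The causes were not tested. No paired analysis was possible because each group had 1 array.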
